A study of Mus musculus with 6 samples.

Results

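Nuclear receptors are transcription factors that bind DNA directly, many of them switched by small lipid-soluble ligands such as steroid and thyroid hormones, vitamin A and D derivatives, fatty acids and oxysterols. Their coregulators are recruited to them and raise or lower transcription of the target genes. In adipocytes they act in differentiation, lipid storage and fatty acid oxidation, and several of them work as heterodimers with a retinoid X receptor. The genes described here are 46 of the 49671 genes in the deposited count table, taken by symbol from a list of 39 nuclear receptor genes and 7 coregulator genes.

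The knockout group held 3 RNA-seq libraries from cells given 4-hydroxytamoxifen (4-OH-Tam), and the control group held 3 from cells given ethanol (EtOH), each for 24 h and 2 days ahead of differentiation. All cells were an immortalised line from inguinal fat stromal cells of 3-month-old C57BL/6 Tcf7l2 F/F mice, in which loxP sites flank part of Tcf7l2, a gene for a TCF/LEF transcription factor of Wnt signalling. The sorted cells lacked CD31, CD45 and Ter-119, carried CD34, Sca1 and CD29, and received SV40 large T antigen and CreERT2, a Cre recombinase activated by tamoxifen derivatives, both from retroviruses. Every library came from cells induced with dexamethasone (1 µM), isobutylmethylxanthine (0.5 mM) and insulin (5 µg/mL) and taken at day 8. The labels also list a 5 nM agent under a code whose number goes up by 1 with each library, and do not settle whether the agent differed. Deletion and 4-OH-Tam, itself an estrogen receptor ligand, coincide in all knockout libraries and cannot be told apart. The labels do not say whether the libraries came from separate cultures or whether the line is 1 clone, so the p-values rest on a spread among libraries that may be only technical.

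Total counts per library ran from 26621293 to 33484764. Between libraries of a group the correlation of log2 levels was 0.995 to 0.996, against 0.990 to 0.991 between groups. Control 3 and knockout 2 stood apart from the other 4 libraries on the second principal component, which held 15.9% of the variance, while the first held 51.0% and separated the groups. The deleted gene was measured first. Tcf7l2 (ENSMUSG00000024985, chromosome 19) had 5.65, 6.85 and 5.86 CPM, that is counts adjusted for library size, in knockout libraries, against 7.71, 6.13 and 9.11 CPM in control libraries. The groups overlapped, and the log2 fold change, knockout over control, was -0.32 (SE 0.14, adjusted p = 0.125 in edgeR; 0.0322 without control 2). Counts over the whole gene do not check the loss of single exons. Summed over 10 adipocyte marker genes, the level was 9782 to 11620 CPM in knockout libraries and 6833 to 7008 CPM in control libraries, and 9 of the 10 were higher. Fabp4 alone made up most of this sum, with 5951 to 7613 CPM in knockout and 4268 to 4511 CPM in control libraries. Preadipocyte and fibroblast markers summed to 3784 to 4394 CPM in knockout libraries and 3823 to 4223 CPM in control libraries. Of these 9 genes, none were called higher, 1 (Thy1) was called lower and 8 were not called. Col1a1 alone ran from 463 to 1097 CPM among knockout libraries, so the sum can hide changes of single markers. Uncalled Ly6a had means of 918 CPM in knockout and 671 CPM in control libraries (adjusted p = 0.0539 in edgeR). Uncalled Pdgfra (1135 and 1247 CPM, adjusted p = 0.0593 in edgeR) and Itgb1 (1031 and 1111 CPM, 0.127) went the other way. The summed endothelial markers, 26.7 to 28.1 CPM in knockout and 23.4 to 25.2 CPM in control libraries, and blood markers, 4.35 to 4.74 CPM in knockout and 3.97 to 5.03 CPM in control libraries, were low, with Adgre1, Cd3e and Hba-a1 at 0. Mesothelial markers summed to 19.7 to 23.2 CPM in knockout and 18.9 to 20.3 CPM in control libraries. Muscle markers summed to 8.60 to 9.97 CPM in knockout and 4.79 to 6.77 CPM in control libraries. Single genes made up most of these sums, which are weak measures of the cell types. Endothelial Kdr, called higher, had means of 17.6 CPM in knockout and 13.6 CPM in control libraries, and Tek, not called, 9.35 and 10.2 CPM. Muscle Des, called higher, had 7.74 and 4.11 CPM, and mesothelial Krt19, not called, 20.4 and 19.1 CPM. In bulk RNA, fewer cells of a type and less RNA per cell cannot be told apart, and the part of the adipocyte markers in the results below was not tested.

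Of the 46 genes, 37 had enough counts to be tested and 12 were called at an edgeR adjusted p under 0.05, 10 higher and 2 lower in the knockout. The called share was 32.4% of the tested genes of the set, against 22.4% of all 14946 genes tested. Higher calls made up 27% of the set against 11.9% of all genes, and lower calls 5.41% against 10.5%. The median log2 fold change was 0.10 over the 37 genes and -0.0017 over all genes tested. By role, 10 of 30 tested receptors and 2 of 7 coregulators were called. In none of the 12 did the values of the groups overlap, which is not separate evidence because the same values gave the calls. The groups did not overlap for uncalled Rarb, Thra, Thrb and Ncor1 either, among others. How many of all genes were without overlap was not counted. Without control 1, 6 of the set were called, 5 higher and 1 lower, and 2145 of all genes, against 12 and 3346 with all libraries. The set lost a larger part of its calls than all genes did, so its higher called share depended on the libraries used. Without control 2, 6 were called higher, and without knockout 3, 1 was called lower. Without knockout 3, 2178 of all genes were called in either direction. All-gene counts by direction are not given for these fits, so these counts of the set cannot be read against a background.

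**Figure D1:**
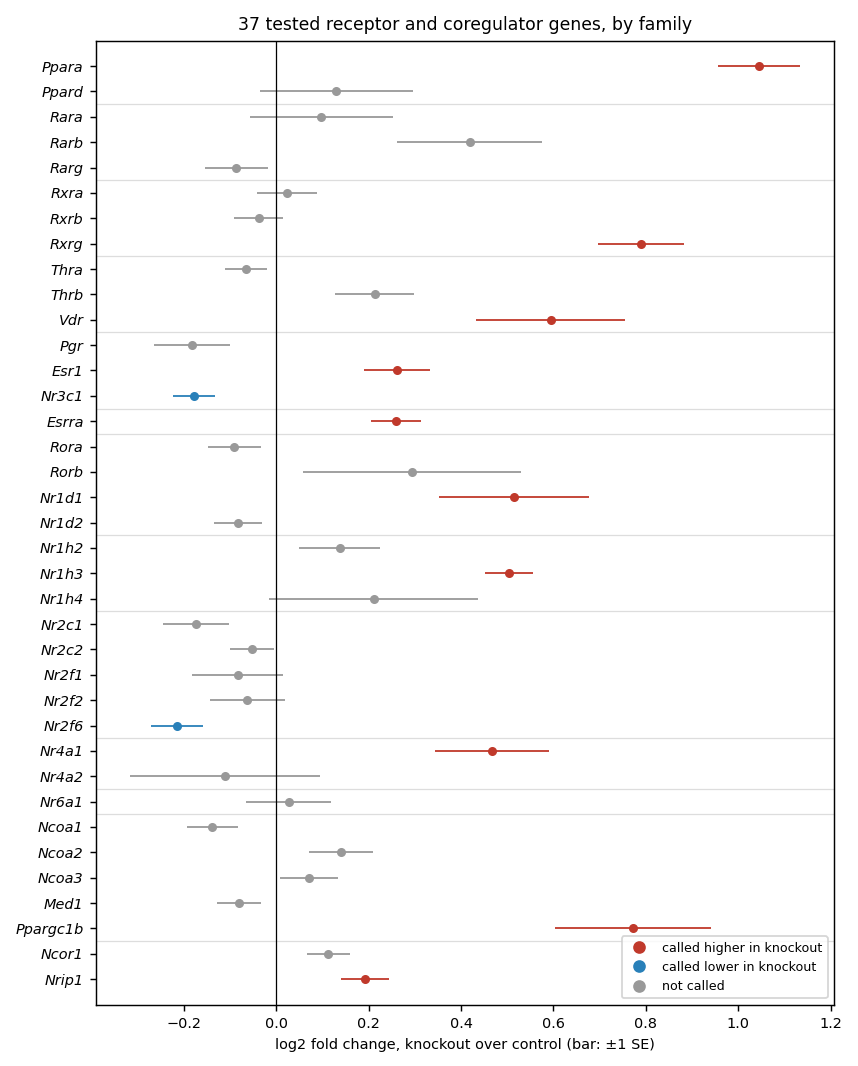
Log2 fold change, knockout over control, of the 37 tested receptor and coregulator genes grouped by family, with bars of 1 SE; colour marks the edgeR call. Ppara lies farthest to the right at 1.05, and Nr3c1 and Nr2f6 are the only called genes left of 0.

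Among the set's receptors for fatty acids and other lipids and their shared partners, 1 gene each of the PPAR, LXR and RXR families was called. Each was higher in the knockout. Of the PPAR family, the set holds only Ppara and Ppard. Ppara encodes PPARα, the fatty acid receptor that drives genes of fatty acid oxidation. It had 15.2, 13.6 and 14.0 CPM in knockout libraries, against 6.61, 6.84 and 7.27 CPM in control libraries. The lowest knockout library lay well above the highest control. The log2 fold change was 1.05 (SE 0.09, adjusted p = 2.71e-06 in edgeR), the largest of the 37. Ppard, the gene of the widely expressed PPARδ, had 4.47 ± 1.04 CPM in knockout and 4.12 ± 0.547 CPM in control libraries (SD, n = 3 each) and was not called. Rxrg encodes RXRγ, one of the shared heterodimer partners. It had 15.7, 17.3 and 18.2 CPM in knockout libraries and 9.89, 8.86 and 10.8 CPM in control libraries. The groups were apart, with a log2 fold change of 0.79 (SE 0.09, adjusted p = 4.04e-05 in edgeR).

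The more abundant partners were not called. Rxra had 105.6, 124.4 and 108.1 CPM in knockout libraries, against 107.4, 107.7 and 118.0 CPM in control libraries, and knockout 2 and control 3 were the high libraries of their groups. Its log2 fold change was 0.02 (SE 0.06, adjusted p = 0.843 in edgeR). Rxrb had 39.5, 40.4 and 38.1 CPM in knockout libraries and 40.5, 40.4 and 40.3 CPM in control libraries, with a log2 fold change of -0.04 (SE 0.05, adjusted p = 0.657 in edgeR). The groups overlapped for both.

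Nr1h3 encodes LXRα, an oxysterol receptor that drives lipogenic and cholesterol export genes. It had 80.8, 77.0 and 77.1 CPM in knockout libraries, against 58.0, 54.7 and 53.0 CPM in control libraries. The groups were far apart relative to their spread (log2 fold change 0.50, SE 0.05, adjusted p = 1.39e-05 in edgeR). Nr1h2, the gene of LXRβ, had 31.9 ± 3.75 CPM in knockout and 29.0 ± 2.56 CPM in control libraries and was not called. Nr1h4, for the bile acid receptor FXR, had 1.40 ± 0.339 CPM in knockout and 1.22 ± 0.255 CPM in control libraries, also without a call.

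**Figure D2:**
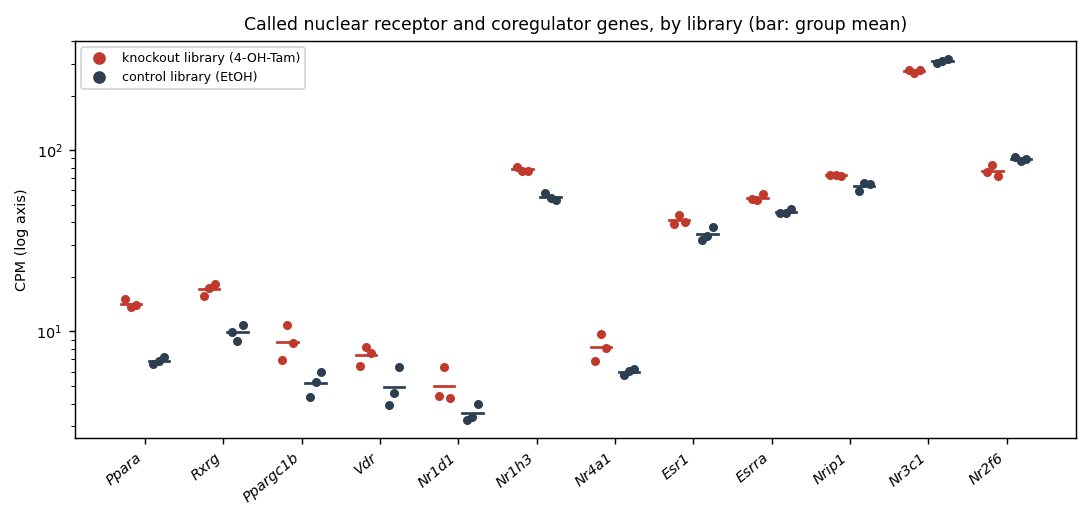
CPM in each library for the 12 called genes, on a log axis, knockout left and control right for each gene, with points for libraries and a bar for the mean of 3. At every gene the knockout points lie wholly above or wholly below the control points, as they also do for several uncalled genes not shown.

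Promoter windows from RefSeq (build GRCm38.p6, 250 bases before to 50 after the start) were at hand for 41 of the 46 genes, in 61 windows. The AGGTCA element, to which many of these receptors bind, was searched on both strands and occurred in 10 of the 41 genes (24.4%), against 18.1% of 27025 genes. Its shorter core GGTCA, contained in it and searched after the data were seen, occurred in 51.2% against 43.6%. Of the 9 genes called higher that had a window, 1 held AGGTCA and 3 held GGTCA, so neither element marked the called genes. The TCF/LEF element ATCAAAG occurred in 1 gene of the set, Nr2f2 (2.44%, against 4.29% of all genes). Windows of the set had a median GC content of 60.0%, against 52.7% over all windows, so their base composition differed too. Rxrg and Ppara are shown as called genes with and without GGTCA, and Nr4a1 for another element. For Rxrg, both strand + start sites on chromosome 1 hold GGTCA, in capitals (TGACC where it lies on the other strand), at 145 and 87 bases before the start. The Ppara window holds no GGTCA and so no capitals, although TGACG does occur in it, in lower case. The Nr4a1 window holds TGACG, the core of the cAMP response element, in 4 places, all on the other strand as CGTCA in capitals.
Rxrg chr1:167598112-167598411 strand +: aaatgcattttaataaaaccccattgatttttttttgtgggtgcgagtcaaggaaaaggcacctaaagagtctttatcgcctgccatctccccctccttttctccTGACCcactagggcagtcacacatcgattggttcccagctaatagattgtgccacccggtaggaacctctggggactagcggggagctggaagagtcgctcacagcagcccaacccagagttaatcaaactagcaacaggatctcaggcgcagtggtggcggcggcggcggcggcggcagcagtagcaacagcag
Rxrg chr1:167618015-167618314 strand +: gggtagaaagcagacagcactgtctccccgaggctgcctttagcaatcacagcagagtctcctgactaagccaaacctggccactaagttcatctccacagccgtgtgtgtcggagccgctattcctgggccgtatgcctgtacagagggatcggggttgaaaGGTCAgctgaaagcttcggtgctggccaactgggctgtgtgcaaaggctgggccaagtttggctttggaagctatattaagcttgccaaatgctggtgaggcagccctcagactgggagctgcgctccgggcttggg
Ppara chr15:85735526-85735825 strand +: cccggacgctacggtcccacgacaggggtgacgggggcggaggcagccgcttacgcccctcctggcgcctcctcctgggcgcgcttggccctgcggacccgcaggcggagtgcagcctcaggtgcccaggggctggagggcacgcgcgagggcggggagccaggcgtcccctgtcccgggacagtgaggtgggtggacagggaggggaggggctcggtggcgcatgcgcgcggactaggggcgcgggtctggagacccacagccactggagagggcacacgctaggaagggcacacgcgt
Nr4a1 chr15:101266596-101266895 strand +: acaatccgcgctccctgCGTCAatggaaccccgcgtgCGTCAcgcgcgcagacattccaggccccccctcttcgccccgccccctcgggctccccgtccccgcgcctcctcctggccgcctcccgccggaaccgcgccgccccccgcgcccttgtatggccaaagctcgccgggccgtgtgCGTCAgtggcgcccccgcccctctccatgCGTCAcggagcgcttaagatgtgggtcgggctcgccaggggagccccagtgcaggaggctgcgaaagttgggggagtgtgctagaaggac

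TGACG, searched after the data were seen, occurred in 34.1% of the 41 genes and 23.0% of all genes, and in all 3 NR4A genes. The pattern TNAGGTCA, taken to stand for the ROR and REV-ERB element, occurred in 4.88% of the set and 5.17% of all genes. These shares need not be those of the element itself. The E-box CACGTG occurred in 12.2% of the set and 8.09% of all genes. The full cAMP response element TGACGTCA, which contains TGACG, occurred in 2.44% and 2.03%. The ERR element TNAAGGTCA, added after the data were seen, occurred in 0 of 41 genes and in 1.43% of all genes. A match is a run of letters and not a binding site.

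Among the receptors for retinoic acid, thyroid hormone and vitamin D, the vitamin D receptor gene was called. Vdr had 6.45, 8.19 and 7.58 CPM in knockout libraries, against 3.93, 4.57 and 6.36 CPM in control libraries. Knockout 1 lay close to control 3 without overlap. Its log2 fold change was 0.59 (SE 0.16, adjusted p = 0.0199 in edgeR), and the call ended without knockout 2 (0.059), knockout 3 (0.0752), control 1 (0.103) or control 2 (0.0921). Rarb, for retinoic acid receptor β, had 2.84, 2.42 and 2.91 CPM in knockout libraries and 2.26, 1.77 and 2.03 CPM in control libraries. The groups did not overlap, yet it passed only without knockout 2 (adjusted p = 0.0732 in edgeR, and 0.0479 without that library). On the opposite strand, Top2b, at 251 CPM, overlaps 34.1% of the exonic bases of Rarb. The strand setting of the counting is not given in the sources used here. Rara and Rarg, for the other retinoic acid receptors, had log2 fold changes of 0.10 (SE 0.15) and -0.09 (SE 0.07) and were not called.

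Thra, for the more abundant thyroid hormone receptor, had 93.5, 98.1 and 94.4 CPM in knockout libraries, against 98.8, 100.2 and 100.7 CPM in control libraries. The values did not overlap, but the log2 fold change was only -0.07 (SE 0.05, adjusted p = 0.336 in edgeR). Thrb, the other thyroid hormone receptor gene, had 17.8, 15.1 and 15.9 CPM in knockout libraries and 13.4, 13.7 and 15.0 CPM in control libraries. Its log2 fold change of 0.21 (SE 0.08, adjusted p = 0.0922 in edgeR) passed without knockout 2 (0.031) and without control 3 and knockout 2 together (0.00978).

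The steroid receptor genes went both ways. Nr3c1 encodes the glucocorticoid receptor, the target of the dexamethasone given to all cells. It had 278, 267 and 277 CPM in knockout libraries, against 302, 309 and 319 CPM in control libraries. All 3 knockout values were below the lowest control, a small fall with a log2 fold change of -0.18 (SE 0.05, adjusted p = 0.0124 in edgeR). Esr1, for estrogen receptor α, had 38.9, 44.0 and 40.03 CPM in knockout libraries and 31.7, 33.5 and 37.4 CPM in control libraries. The groups stood close together, and the log2 fold change of 0.26 (SE 0.07, adjusted p = 0.0181 in edgeR) lost its call without control 1 (0.119) or control 2 (0.08). Pgr, for the progesterone receptor, had 16.7 ± 1.61 CPM in knockout and 18.9 ± 0.806 CPM in control libraries without a call, at a log2 fold change of -0.18 (SE 0.08, adjusted p = 0.132 in edgeR). Esr2 and Nr3c2, for estrogen receptor β and the mineralocorticoid receptor, had at most 7 counts in any library and were not tested.

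Esrra encodes ERRα, an orphan receptor of mitochondrial energy genes. It had 54.0, 52.9 and 57.1 CPM in knockout libraries, against 45.2, 44.8 and 47.1 CPM in control libraries. The groups were apart, with a log2 fold change of 0.26 (SE 0.05, adjusted p = 0.00333 in edgeR). Ppargc1b, for PGC-1β, a coactivator that works with ERRα, had 6.92, 10.8 and 8.63 CPM in knockout libraries and 4.35, 5.28 and 5.95 CPM in control libraries. Its knockout values were spread widely but lay above every control (log2 fold change 0.77, SE 0.17, adjusted p = 0.00727 in edgeR). Esrrb and Esrrg had at most 3 counts in any library.

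Among the receptors of the circadian clock, Nr1d1 encodes REV-ERBα, a repressor in the clock's feedback loop. It had 4.38, 6.34 and 4.29 CPM in knockout libraries, against 3.25, 3.37 and 3.99 CPM in control libraries. Knockout 2 was high and the other 2 knockout libraries were near control 3. The log2 fold change of 0.51 (SE 0.16, adjusted p = 0.0377 in edgeR) was 0.30 without knockout 2 (adjusted p 0.148), and the call also ended without control 1 (0.167) or control 2 (0.129), with limma-voom (0.052), and without control 3 and knockout 2 together (0.0618). Nr1d2, for REV-ERBβ, had 70.1, 64.8 and 67.2 CPM in knockout libraries and 69.7, 74.3 and 70.0 CPM in control libraries. The groups overlapped, and the log2 fold change was -0.08 (SE 0.05, adjusted p = 0.292 in edgeR). Rora and Rorb, the activators that share the REV-ERB element, had log2 fold changes of -0.09 (SE 0.06) and 0.29 (SE 0.24) and were not called. Nr1d1 and Thra lie on opposite strands of chromosome 11 and share 263 exonic bases, 8.55% of those of Nr1d1, and Thra was at 97.6 CPM against 4.27 CPM for Nr1d1. Rara lies on the same chromosome, at 98927818 to 98974942, beyond Thra (98740638 to 98769006) and Nr1d1 (98767932 to 98775333), and Rarb, Thrb and Nr1d2 lie on chromosome 14 between 16430839 and 18239127 (GRCm38).

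Nr4a1 encodes NUR77, an immediate-early orphan receptor. It had 6.89, 9.71 and 8.14 CPM in knockout libraries, against 5.72, 6.02 and 6.21 CPM in control libraries. Knockout 1 was close to control 3 and knockout 2 was highest. The log2 fold change was 0.47 (SE 0.12, adjusted p = 0.0155 in edgeR), and the call ended without control 1 (0.086) or control 2 (0.0551). Nr4a2, for NURR1, had 3.03 ± 0.937 CPM in knockout and 3.32 ± 0.586 CPM in control libraries and was not called. Nr4a3, for NOR1, had 15, 7 and 8 counts in knockout libraries and 7, 8 and 3 counts in control libraries and was not tested.

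Nr2f6, the gene of the orphan repressor EAR2, had 75.5, 83.0 and 72.0 CPM in knockout libraries, against 91.2, 87.0 and 89.4 CPM in control libraries. Knockout 2 came nearest to the controls. The log2 fold change was -0.21 (SE 0.06, adjusted p = 0.0144 in edgeR), and the call ended without knockout 3 (0.0937) or control 1 (0.0811). On the opposite strand, Ocel1, at 9.99 CPM, overlaps 54.4% of the exonic bases of Nr2f6. The related orphan receptors Nr2f1, Nr2f2, Nr2c1 and Nr2c2 had log2 fold changes of -0.08, -0.06, -0.17 and -0.05 and were not called, and Mrps25 on the opposite strand overlaps 30.7% of the exonic bases of Nr2c2. Nr6a1, an orphan receptor of germ cells, was at 0.03 (SE 0.09). Nr1i3, for the xenobiotic receptor CAR, had at most 1 count. Tomm40l on the opposite strand, at 31.8 CPM, overlaps 74.85% of the exonic bases of Nr1i3. Nr0b1, Nr0b2 and Nr5a2 were at 0 in all 6 libraries, where a count of 0 allows a level of up to 0.0896 to 0.113 CPM per library (counting error only).

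Of the coregulators, Nrip1 encodes RIP140, which in adipocytes represses oxidative genes. It had 72.8, 72.5 and 72.3 CPM in knockout libraries, against 59.6, 66.0 and 65.0 CPM in control libraries. The knockout values were nearly equal and above all controls. The log2 fold change was 0.19 (SE 0.05, adjusted p = 0.018 in edgeR), and the call ended without knockout 3 (0.0674) or control 1 (0.107). Ncor1, for a corepressor that binds unliganded receptors, had 197, 199.8 and 194 CPM in knockout libraries and 179, 178 and 191 CPM in control libraries. The groups did not overlap, and the log2 fold change of 0.11 (SE 0.05, adjusted p = 0.103 in edgeR) passed without control 3 and knockout 2 together (0.0266).

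Ncoa1, for the p160 coactivator SRC-1, had 102, 111 and 105 CPM in knockout libraries, against 110.0, 116 and 124 CPM in control libraries. Knockout 2 lay above control 1, and the log2 fold change of -0.14 (SE 0.06, adjusted p = 0.0932 in edgeR) passed without knockout 2 (0.026). Ncoa2, for a second p160 coactivator, had a log2 fold change of 0.14 (SE 0.07, adjusted p = 0.171 in edgeR), which passed without control 3 (0.0347) and without control 3 and knockout 2 together (0.0215). Ncoa3 and Med1, a p160 coactivator and a Mediator subunit that contacts receptors, were at 0.07 (SE 0.06) and -0.08 (SE 0.05) and were not called.

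Within 9 families of related receptors or coactivators, the makeup was described as 1 gene's share of the family's summed CPM per kilobase of exon. Rxrg made up 18.9%, 18.6% and 21.2% of the RXR total in knockout libraries, against 12.6%, 11.4% and 12.95% in control libraries. Ppara made up 86.2% ± 3.32 of the sum of Ppara and Ppard in knockout and 76.7% ± 1.48 in control libraries (SD, n = 3 each). Nr1h3 took 76.6% ± 2.35 of the LXR sum in knockout and 71.7% ± 2.33 in control libraries. Ncoa1 went the other way, with 61.8% ± 0.403 of the p160 sum in knockout and 65.4% ± 0.579 in control libraries. The groups did not overlap for these 4, nor for Nr1d1 (11.6% ± 2.70 of the REV-ERB sum in knockout, 8.02% ± 0.953 in control), Thrb (9.62% ± 0.936 of the thyroid hormone receptor sum in knockout, 8.06% ± 0.376 in control) and Nr4a1 (74.7% ± 2.85 of the NR4A sum in knockout, 66.8% ± 2.59 in control). A 2-sided exact permutation test gave p = 0.1 for each of them, or 0.129 after adjustment over the 9 families. As 0.1 is the smallest p that 3 against 3 libraries allow, the test cannot decide whether a share differed. In each family 1 gene was followed. Rxrg, Ppara, Nr1h3, Nr1d1, Nr4a1 and Ppargc1b were themselves called higher in the same libraries, so their shares are not separate evidence. How often the shares of other genes were without overlap was not counted. Rarb in the retinoic acid receptor sum (exact permutation p = 0.2) and Ppargc1b in the PGC-1 sum (exact permutation p = 0.5) overlapped between the groups.

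**Figure D3:**
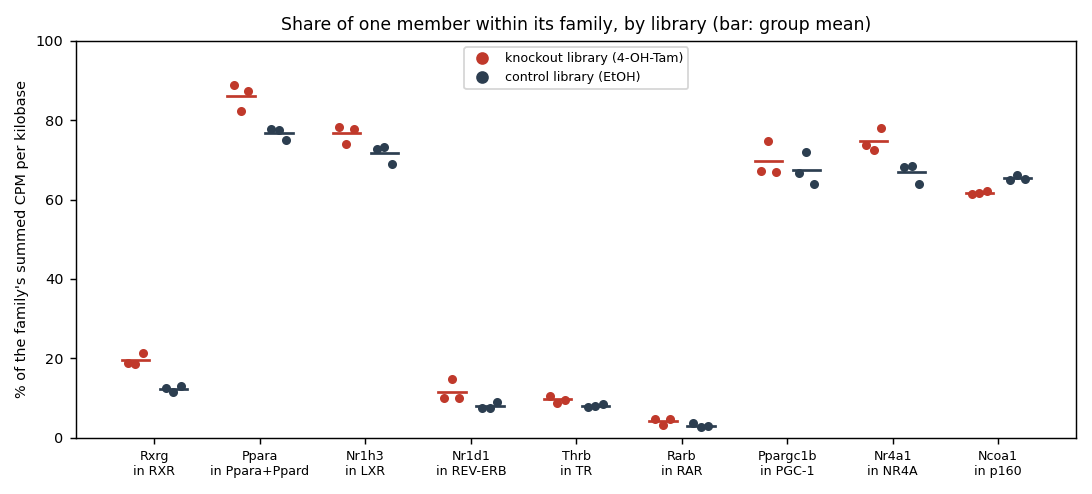
Share of the named gene in its family's summed CPM per kilobase, in percent, for 9 families, knockout left of control, with a point per library and a bar for the mean. The share of Rxrg lies between 18.6% and 21.2% in knockout libraries and between 11.4% and 12.95% in control libraries.

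Set beside each other per kilobase of exon, the glucocorticoid receptor gene was the most abundant of the set in both groups. Nr3c1 had 35.6 ± 0.740 CPM per kilobase in knockout and 40.3 ± 1.13 in control libraries. In knockout libraries Nr1h3 came next at 31.1 ± 0.851, ahead of Nr2f6 at 25.8 ± 1.88, while in control libraries Nr2f6 (29.9 ± 0.695) came before Nr1h3 (22.0 ± 1.01). Thra (20.7 ± 0.530 in knockout, 21.6 ± 0.211 in control) and Rxra (20.6 ± 1.87 in knockout, 20.3 ± 1.10 in control) followed, and these neighbours did not differ beyond their spread in knockout libraries. Ppara, with the largest fold, was low, at 3.71 ± 0.219 in knockout and 1.80 ± 0.0872 in control libraries. Rorb was the lowest tested gene, at 0.122 CPM per kilobase in knockout and 0.101 in control libraries.

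**Figure D4:**
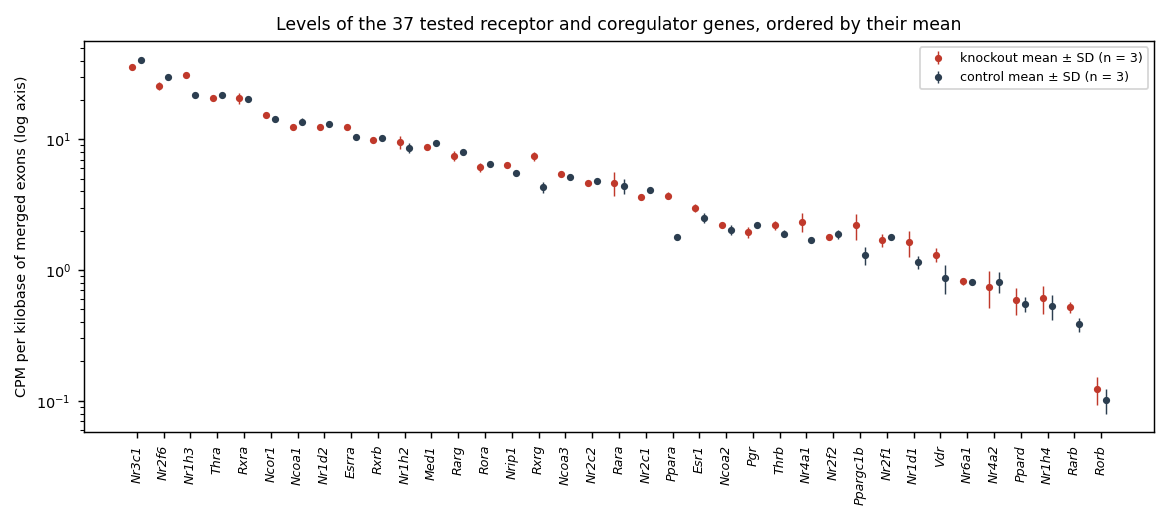
CPM per kilobase of merged exons on a log axis for the 37 tested genes, as mean ± SD of 3 libraries, knockout left of control and ordered by the mean over all libraries. The levels run from Nr3c1 (35.6 in knockout, 40.3 in control) to Rorb (0.122 in knockout, 0.101 in control).

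The 37 genes shared a library pattern within the groups. Knockout 2 was the highest knockout library for 21 of them (56.8%, against 36.2% of all genes tested), and control 3 the highest control library for 26 (70.3%, against 36.8%). These are the libraries that stood apart on the second component. Without both, Nr1d1 lost its call, no other called gene of the set did, and Thrb, Ncoa2 and Ncor1 gained one.

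Other genes of the receptors' pathways (targets, ligand synthesis and transport, clock partners, and further receptors and coregulators) were described by 10 lists, holding 194 distinct genes of which 171 were tested, 70 called higher and 14 lower. Their counts are read against the 22.4% of all genes called, 11.9% higher and 10.5% lower. Of 31 tested PPAR target genes, 23 were higher, 2 lower and 6 not called (median log2 fold change 0.65). Pck1, for the cytosolic PEPCK of glyceroneogenesis, had 56.3 ± 4.17 CPM in knockout and 26.0 ± 3.21 CPM in control libraries (log2 fold change 1.11, SE 0.09, adjusted p = 2.71e-06 in edgeR). Ucp3, for a mitochondrial carrier, and Plin5, for a lipid droplet coat protein, were 2.12-fold and 2.07-fold higher, while Acot2 and Vldlr were 1.20-fold and 1.19-fold lower. Of 15 tested LXR targets, 11 were higher, 1 lower and 3 not called (median 0.60), a count that includes Nr1h3 itself. Apoc1, Fasn (fatty acid synthase) and Scd1 (stearoyl-CoA desaturase) were 2.04-fold, 1.98-fold and 1.96-fold higher, and Arl4c was lower by a log2 fold change of -0.32. Of 18 ERR targets, 16 were higher, none lower and 2 not called (median 0.47), among them Acadm (1.64-fold) and Pdk4 (1.62-fold), for an enzyme of fatty acid oxidation and a regulator of pyruvate oxidation. The lists are not separate evidence: Acadm and Pdk4 are also on the PPAR list, and 4 of the 10 adipocyte markers (Adipoq, Cidec, Fabp4 and Plin1) are among its 23 higher genes. The adipocyte markers were higher in the same libraries, and their part in these counts was not tested.

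Of 10 tested genes of thyroid hormone transport, deiodination and response, 7 were higher, none lower and 3 not called (median 0.69). The lipogenic genes Mlxipl, which is also on the LXR list, and Thrsp were 1.83-fold and 1.74-fold higher. Of 19 glucocorticoid genes, 6 were higher, 4 lower and 9 not called (median 0.11). Hsd11b1, whose enzyme regenerates active glucocorticoid, had 13.5 ± 0.370 CPM in knockout and 7.48 ± 1.26 CPM in control libraries. Hsd11b2, whose enzyme inactivates it, had 0.809 ± 0.162 CPM in knockout and 2.14 ± 0.176 CPM in control libraries. Of the same list, Lpin1 and Zbtb16 were 1.43-fold and 1.30-fold higher, and Fkbp5 and Sgk1 were 1.26-fold and 1.23-fold lower, so its called genes went both ways. Of 5 tested vitamin D, estrogen and progesterone targets, none were higher and 2 were lower, Greb1 (1.60-fold) and Hif1a (1.22-fold), with a median of -0.07.

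Of 15 tested genes of retinoic acid synthesis, binding and response, 3 were higher (Tgm2 at 1.82-fold, Aldh1a3 at 1.81-fold, Retsat at 1.36-fold), 2 lower (Aldh1a2 at 1.29-fold, Rdh10 at 1.24-fold) and 10 not called (median 0.06). Rdh10 lost its call without control 2 (adjusted p = 0.0574 in edgeR). Of 16 clock genes, Nfil3 (1.19-fold) and Per3 (1.12-fold) were higher and Bhlhe41 (1.30-fold) lower, with a median of 0.03. The groups overlapped for Bhlhe41, and both it and Per3 lost the call without any library but knockout 2 (adjusted p = 0.0548 to 0.141 in edgeR for Bhlhe41 and 0.0601 to 0.142 for Per3). Of 20 immediate-early and cAMP-induced genes, 4 were higher, among them Sik1 (1.38-fold), Ier3 (1.30-fold) and Btg2 (1.15-fold), 2 were lower, Egr2 (1.47-fold) and Jund (1.22-fold), and 14 were not called (median 0.16). Ier3, whose groups overlapped, lost the call without knockout 1, knockout 3, control 1 or control 2 (adjusted p = 0.114 to 0.174 in edgeR), Btg2 without knockout 3, control 1 or control 3 (0.0858 to 0.14), and Jund without knockout 3 (0.0547) or control 1 (0.0606). Antisense Gm11175 overlaps 52.6% of the exonic bases of Jund.

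Of 31 tested further nuclear receptor and coregulator genes outside the 46, 28 were not called, none were lower and 3 were higher (median 0.04). Among the higher genes, Ppargc1a, for PGC-1α, and Ep300, for an acetyltransferase coactivator, had log2 fold changes of 0.58 and 0.23, and both lost their calls without knockout 2, knockout 3, control 1 or control 2 (adjusted p = 0.0552 to 0.141 in edgeR for Ppargc1a and 0.0744 to 0.132 for Ep300).

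**Figure D5:**
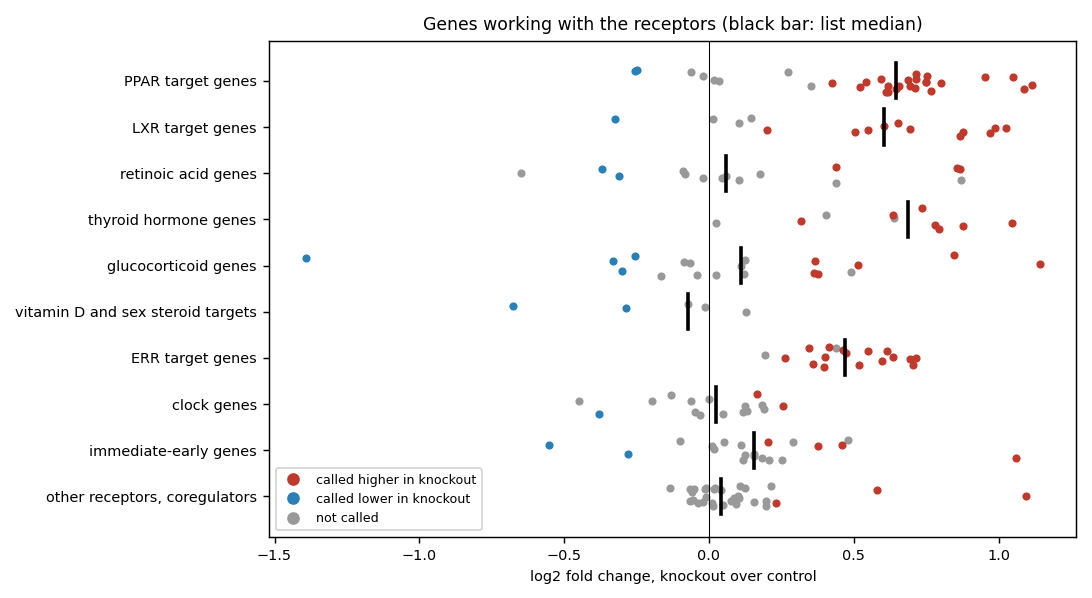
Log2 fold change, knockout over control, of the tested genes of the 10 lists, a point per gene coloured by edgeR call, with a black bar at each list's median. The PPAR, LXR, thyroid hormone and ERR lists have medians of 0.65, 0.60, 0.69 and 0.47, and the other 6 lie between -0.07 and 0.16.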

How the data were processed

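Per the labels' protocols, ribosomal RNA was removed from total RNA and a stranded library kit was used. The authors deposited whole-number read counts, unnormalized, of 49671 Ensembl genes. Genome build GRCm38 and the tools STAR 2.5.2b, featureCounts 1.5.1 and DESeq2 1.16.0 come from the submitters' processing notes. For the annotation release and the counting's strand setting, the sources used here give nothing. Gene positions and exon lengths are those of GENCODE M21, on GRCm38. From the deposited counts, differences were tested over all 14946 genes kept by filterByExpr by the quasi-likelihood F-test of edgeR 4.0.16 under R 4.3.3 (TMM scaling, robust dispersions, group as the only term, Benjamini-Hochberg adjustment), and a gene was called at an adjusted p under 0.05. SE is the size of the log2 fold change divided by the square root of F. CPM are TMM-scaled, and the common biological coefficient of variation was 5.91%. The test was also run on data simulated from the fitted dispersions without a library effect, which is not evidence for the calls made here.

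The 46 genes, the lists and the alternatives were chosen with earlier results of these data known. Called genes of the set and its 6 most abundant uncalled genes per kilobase are given library by library, as far as their average log2 CPM was at least 0; up to 3 called genes per direction are named from each list by the same minimum. The per-library values of Thrb and Rarb were added after values were seen. A few list genes meeting this rule are not reported here. The alternatives were other scalings (DESeq2 size factors, upper quartile, total counts), no filter or a CPM of at least 1 in 3 libraries, DESeq2 1.42.0, limma-voom (limma 3.58.1), an adjusted p under 0.01, leaving out each library, and leaving out control 3 and knockout 2 together.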

Additional observations from a re-analysis of the deposited data

How the results depend on the processing

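Of the 12 called genes, 6 kept the call at an adjusted p under 0.05 in all alternatives (Ppara, Rxrg, Nr1h3, Esrra, Ppargc1b and Nr3c1), and the first 5 were also under 0.01 in the fit the report uses. Under an adjusted p below 0.01, 1934 of all genes and 5 of the set were called, 5 higher and 0 lower. At under 0.05 it was 3346 and 12, so here too the set lost a larger part of its calls than all genes did. Leaving out 1 library at a time, 2145 to 3475 of all genes were called, and 6 to 13 of the set, 5 to 11 higher and 1 to 3 lower, with the fewest of the set without control 1. Uncalled genes near 0 changed sign: over the fits that left out 1 library the log2 fold change ran from -0.0846 to 0.242 for Ppard, -0.0875 to 0.207 for Rara, -0.0542 to 0.0689 for Rxra, -0.405 to 0.0304 for Nr4a2 and -0.0191 to 0.0761 for Nr6a1. Without control 3 and knockout 2 together it was -0.00887 for Rxra and -0.0877 for Nr1h4. Outside the set, DESeq2 ended the calls of Per3 (adjusted p 0.0741) and Ep300 (0.0532), and no filter on low counts that of Per3 (0.0511). The causes were not tested. No scaling changed a call or a direction in the set, and the median of all genes stayed between -0.0097 and 0.0028 under them. No paired analysis was possible because no replicate numbers are shared between the groups in the labels. The 9 untested genes had too few counts for filterByExpr.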
